A study of Mus musculus with 6 samples.

Results

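Mir10a and Mir10b are the miR-10 genes of the mouse Hox clusters. Both were taken by name from a table of 30638 features, of which 2207 are miRNA genes, and both were found and tested. The reads came from hearts of 6 mice on a C57BL/6 background. The 3 knockout mice (labelled L/L, cre, genotype Elac2 -/-) had a loxP-flanked Elac2 exon cut out by a cre recombinase under the muscle creatine kinase promoter, which is active in muscle cells, so that other cells of the heart keep the exon. The 3 control mice (labelled L/L) have the floxed allele without cre by title, and Elac2 +/+ in the genotype field. The labels give no ages. The labels could not be checked against the targeted gene, as Elac2 mRNA was not analysed here. Elac2 encodes RNase Z, the nuclease that removes the 3′ trailer of precursor tRNAs, and the study asked how its loss changes non-coding RNAs of the nucleus and of mitochondria.

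A miRNA is cut from a hairpin in its primary transcript by Drosha and Dicer, and one arm is loaded into an Argonaute protein, which it guides to mRNAs through its seed, bases 2 to 8. The miR-10 genes have kept their place among the Hox genes in most animals studied, and they share a seed with each other and nearly so with miR-99 and miR-100. In zebrafish, miR-10 acts in endothelial cells to promote vessel growth. In human breast cancer cells, miR-10b represses the Hox gene HOXD10.

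The mature products explain which reads can be told apart. In RefSeq (GRCm38.p6) the 5′ products of both genes are 23 nt long and identical at 22 positions, with the substitution U12A (miR-10a base first, positions counted from the 5′ end). The differing base is in capitals here:
miR-10a-5p: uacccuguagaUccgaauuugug
miR-10b-5p: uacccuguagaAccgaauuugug
The 3′ products, 22 nt long, differ at 3 positions, A3G, U9A and A10U, again in capitals:
miR-10a-3p: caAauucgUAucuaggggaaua
miR-10b-3p: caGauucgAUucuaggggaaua
The 5′ products of the closest relatives are shown with the seed in capitals, beside miR-10a, because the seed groups are compared later:
miR-10a-5p: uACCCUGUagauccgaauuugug
miR-100-5p: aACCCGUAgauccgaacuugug
miR-99a-5p: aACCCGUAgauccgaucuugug
miR-99b-5p: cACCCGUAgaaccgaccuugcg
The seed ACCCUGU belongs to 2 mature mouse names in the RefSeq table, miR-10a-5p and miR-10b-5p, and the seed ACCCGUA to the 3 names of the miR-99/100 group. Between miR-10a-5p and these products there are 3 edits (substitutions, insertions or deletions) for miR-100-5p, 4 for miR-99a-5p and 6 for miR-99b-5p.

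The genes lie in different Hox clusters. Mir10a is at chr11:96317165-96317274 on the plus strand of GRCm38, where GENCODE M21 places no other gene, 993 bp upstream of Hoxb4. Mir10b is at chr2:74726070-74726137 on the plus strand, in introns of Hoxd3 and Hoxd4 on the same strand. The hairpins are shown with both mature arms in capitals, since the counts are per gene and do not separate the arms:
Mir10a: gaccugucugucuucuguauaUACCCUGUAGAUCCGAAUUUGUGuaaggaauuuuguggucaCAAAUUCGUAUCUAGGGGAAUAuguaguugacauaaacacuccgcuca
Mir10b: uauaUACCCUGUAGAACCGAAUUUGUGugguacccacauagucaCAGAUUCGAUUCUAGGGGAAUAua
The sources used here do not say how reads with several alignments were counted, so the split of reads between the genes is uncertain, and their sum is given beside them.

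Libraries of 14505705 to 15271036 counts in knockout hearts and 13510061 to 16248673 in control hearts stood behind these values, and miRNA genes held 29.2% to 33.3% of the counts in knockout libraries and 39.5% to 43.4% in control libraries. Of 7 cardiomyocyte miRNA markers, such as Mir1a-1 and Mir133a-1, all were tested, and their summed level was 72669 to 93284 CPM (counts per 1e6 of the library size scaled by TMM factors) in knockout hearts and 117837 to 148037 CPM in control hearts. With TMM factors 1 of the 7 was called higher (Mir208b) and 2 lower (Mir1a-1 and Mir1a-2). Over all tested features, 50.2% were called, 23.2% higher and 27.0% lower. Mir1a-1 and Mir1a-2 had nearly equal means, 41794 and 40728 CPM in knockout and 62248 and 62354 CPM in control hearts. They held most of the sum, and whether they are separate signals was not tested. The count called lower was 0 without any one of the knockout replicates, fits in which all features shifted upward by a median of 0.21 to 0.24. It was 4 without control replicate 1, and 6 with total counts, where 37.8% of all features were called lower. The endothelial marker Mir126a summed to 17620 to 20972 CPM in knockout hearts against 19531 to 23763 CPM in control hearts (Mir126b was at 0 in every library), and the 2 smooth muscle markers to 22072 to 30035 CPM in knockout against 26672 to 33574 CPM in control hearts; none of these 3 was called by edgeR with TMM factors, while with total counts all 3 were called lower. The 2 fibroblast markers with reads, Mir199a-1 and Mir199b, summed to 2218 to 2346 CPM in knockout hearts against 1157 to 1628 CPM in control hearts, with Mir199a-2 and Mir214 at 0. Both were called higher with TMM factors and without any one library, but 1 of them with total counts and 0 with snoRNA-based factors. With TMM factors 23.2% of all features and 17.0% of tested miRNA genes were called higher. Total counts moved the median log2 fold change of all features by -0.34, and snoRNA-based factors moved it by -0.84. Red cell markers held 2205 to 2921 CPM in knockout hearts against 2644 to 3696 CPM in control hearts, with 1 of 3 called higher and 1 lower with TMM factors. Mir486 held the largest part of the sum, with means of 1362 CPM in knockout and 2161 CPM in control hearts. Whether its reads came from red cells was not tested. Mir486 was called lower (log2 fold change -0.67) and Mir144 higher (0.85), while Mir451a (0.40) was not called. Mir144 and Mir451a thus went against the direction of the sum. Leukocyte markers held 159 to 193 CPM in knockout hearts against 125 to 156 CPM in control hearts, with Mir223 and Mir155 at 0. With TMM factors 1 of the 2 tested leukocyte markers was called lower, against the direction of the sum, and this call was lost in 5 of the 6 fits that leave out a library. The part of these shifts in the values of Mir10a and Mir10b was not tested. In whole hearts, fewer cells of a type and less RNA per cell cannot be told apart.

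Mir10a and Mir10b were among the well measured miRNAs of the heart, and neither passed the test between knockout and control hearts. By read count Mir10a ranked from 30 to 45 among 312 tested miRNA genes in single libraries, and Mir10b from 38 to 54. Counting error was small, at most 0.966% (SD) of a Mir10a count and 1.29% of a Mir10b count.

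Mir10a had 10716, 13794 and 14495 raw counts in knockout hearts (replicates 1 to 3), and 24216, 21106 and 18319 in control hearts. Scaled for library composition, these were 778, 1091 and 1091 CPM in knockout hearts against 1574, 1189 and 1001 CPM in control hearts. Every raw count of Mir10a was lower in knockout hearts. The summed counts of all miRNA genes were lower there too, at 4231749 to 4980125 against 5860912 to 6822014 in control libraries. The share of features apart in raw counts was not computed. The scaled levels of Mir10a overlapped: control replicate 3 lay below knockout replicates 2 and 3. Mean levels were 987 ± 181 CPM in knockout and 1255 ± 292 CPM in control hearts (SD, n = 3 each). The fold was 0.787 (95% interval 0.575 to 1.08), or -0.35 on the log2 scale (SE 0.21). This did not pass: the adjusted p was 0.181 in the quasi-likelihood test of edgeR, adjusted after Benjamini and Hochberg over 1144 features and called under 0.05, and the interval of the fold includes 1.

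Mir10b had 5962, 8459 and 8658 raw counts in knockout hearts and 15967, 10266 and 8295 in control hearts. The scaled levels were 433, 669 and 652 CPM in knockout hearts against 1038, 578 and 453 CPM in control hearts. Control replicate 1 stood above all other libraries, and the remaining controls lay within the range of the knockout hearts. Means were 585 ± 132 CPM in knockout and 690 ± 308 CPM in control hearts (SD, n = 3 each). The fold was 0.848 (95% interval 0.546 to 1.31), or -0.24 on the log2 scale (SE 0.29, adjusted p = 0.508 by edgeR). In the authors' deposited table, too, neither gene was called: it gives -0.31 on the log2 scale for Mir10a (SE 0.24, adjusted p = 0.310 by DESeq2) and -0.21 for Mir10b (SE 0.31, adjusted p = 0.618 by DESeq2). Of the 2597 features with an adjusted p in it, 29.4% were called.

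**Figure D1:**
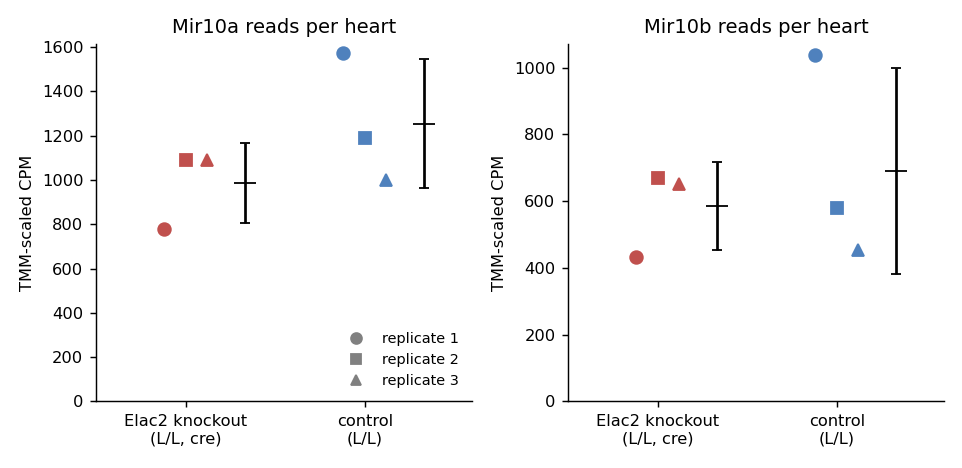
Reads of Mir10a (left) and Mir10b (right) per heart, in TMM-scaled CPM on linear axes from 0; points are mice, with the shape giving the replicate number, and the bar is the mean ± SD of 3 mice. Knockout replicate 1 is the lowest library for both genes, at 778 CPM of Mir10a and 433 CPM of Mir10b, and control replicate 1 the highest, at 1574 CPM of Mir10a and 1038 CPM of Mir10b.

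The background of calls was high: 50.2% of the 1144 tested features and 23.4% of the 312 tested miRNA genes were called in either direction. Called lower in knockout hearts were 27.0% of all features and 6.41% of miRNA genes, and called higher 23.2% and 17.0%. Groups did not overlap in CPM for 63.0% of all features and 41.7% of tested miRNA genes, a set that holds neither Mir10a nor Mir10b. The median log2 fold change of the tested miRNA genes was 0.21, so Mir10a lay 0.56 below it and Mir10b 0.45 below it. Of the other 311 miRNA genes, 42 had a lower log2 fold change than Mir10a and 66 a lower one than Mir10b.

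**Figure D2:**
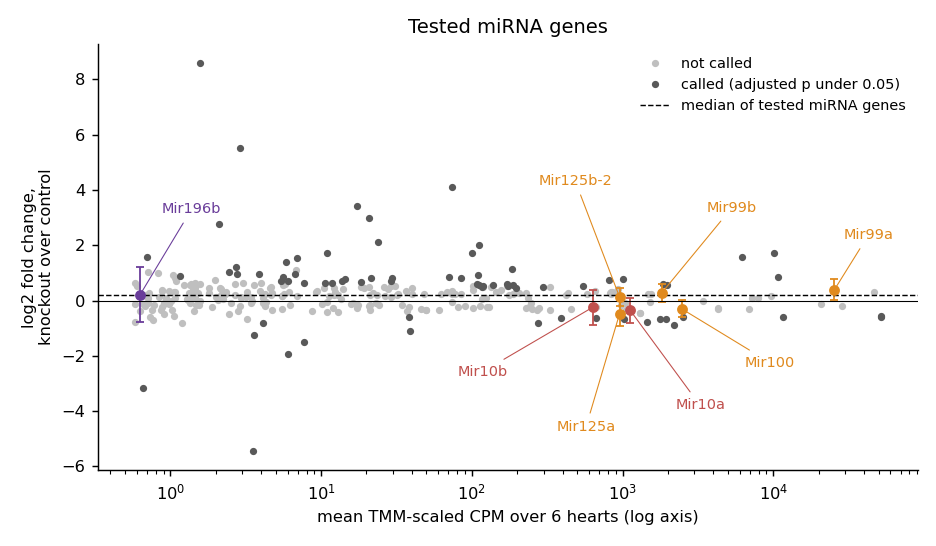
Log2 fold change of knockout over control (vertical axis) against mean level in CPM over 6 hearts (horizontal log axis) for the 312 tested miRNA genes, with called genes dark and the median of 0.21 dashed. Mir10a and Mir10b (red) lie at -0.35 and -0.24, the relatives are orange and Mir196b purple, and error bars are 95% intervals.

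Control replicate 1 carried much of the difference in both genes. Without it, the log2 fold change of Mir10a was -0.08 (SE 0.19, adjusted p = 0.741) and that of Mir10b turned to 0.25 (SE 0.21, adjusted p = 0.306 by edgeR). Without knockout replicate 1 the values were -0.0047 (adjusted p = 0.989) for Mir10a and 0.11 (adjusted p = 0.782) for Mir10b, and in that fit the log2 fold changes of all features were shifted upward by a median of 0.21. The shift was 0.24 without knockout replicate 2 and 0.22 without knockout replicate 3. Without control replicates 1, 2 and 3 it was 0.017, -0.012 and -0.024. The coefficient of variation among the 3 knockout hearts was 18.3% for Mir10a and 22.5% for Mir10b, with a median of 9.46% over the 98 miRNA genes with at least 100 CPM. Among the 3 control hearts it was 44.6% for Mir10b, and 0 of the 98 genes had a larger one (median 14.0%). In shares of miRNA counts it was 41.3%, and 1 of these genes varied more. Mir10a varied by 23.3% among control hearts in CPM, with 16 genes above it.

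The result for Mir10a depended on how libraries were scaled. Mir10a was called lower with total counts alone (log2 fold change -0.70, adjusted p = 0.0101), where 37.8% of all features were called lower, and with factors from miRNA genes (-0.52, adjusted p = 0.0422), where 31.1% were. With factors from snoRNA genes, 57.6% of features were called lower, and so were Mir10a (-1.19, adjusted p = 0.000427) and Mir10b (-1.09, adjusted p = 0.00686). When snRNA and rRNA genes set the factors, both values turned positive, at 0.18 for Mir10a (adjusted p = 0.697) and 0.26 for Mir10b (adjusted p = 0.661), neither being called where 55.3% of all features were called in either direction. A change of factors moves all genes of a library alike, so the distance to the median of the tested miRNA genes is nearly fixed across scalings and says nothing on stability. Leaving out control replicate 1 does change it, to -0.36 for Mir10a and -0.03 for Mir10b, against -0.56 and -0.45 with all libraries.

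**Figure D3:**
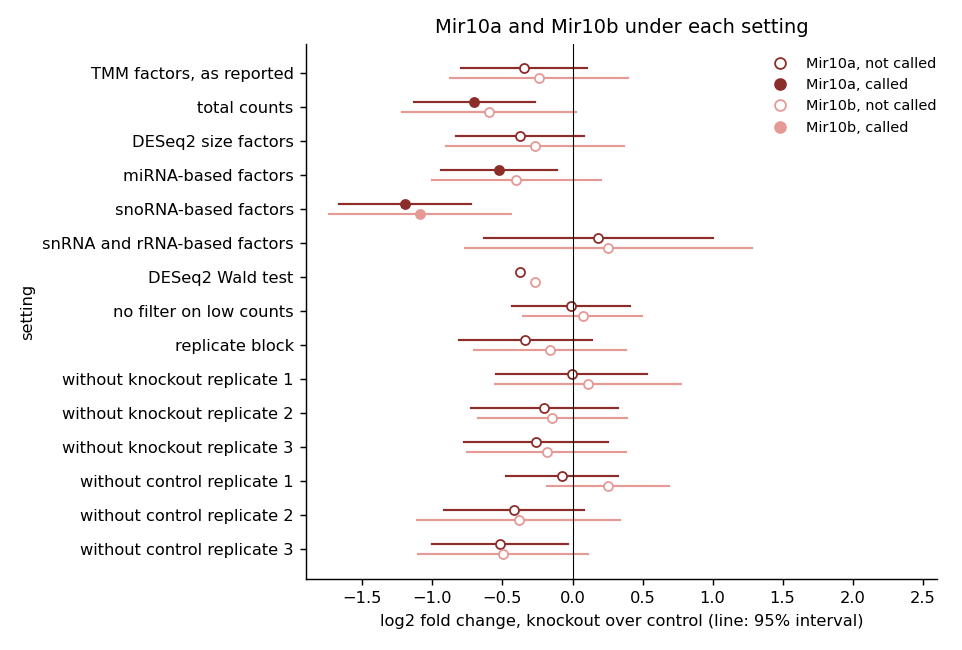
Log2 fold change of knockout over control for Mir10a (dark) and Mir10b (light) under each scaling, test and left-out library, with lines for 95% intervals (none for the DESeq2 Wald test) and filled points for an adjusted p under 0.05. Mir10a is filled with total counts, miRNA-based and snoRNA-based factors, and Mir10b with snoRNA-based factors.

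Shares of the miRNA counts in a library leave other RNA classes aside. Mir10a took 0.253%, 0.286% and 0.291% of miRNA counts in knockout hearts, against 0.413%, 0.309% and 0.291% in control hearts, and the widest 95% Wilson interval reached 0.00519 percentage points to either side (counting error only). The groups met at their edge: the highest knockout and the lowest control share are equal to 3 digits, with the control one larger, which gives p = 0.1 in an exact two-sided permutation test, the smallest p that 3 against 3 allow. Groups were apart in this measure for 43.6% of tested miRNA genes. Mir10b took 0.141%, 0.175% and 0.174% in knockout hearts against 0.272%, 0.150% and 0.132% in control hearts (exact permutation p = 0.9, widest interval 0.00422 points to either side). Its difference in mean share, -0.0216 percentage points, turned to 0.0222 without control replicate 1.

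The balance within the pair needs no scaling. Knockout hearts had 1.80, 1.63 and 1.67 Mir10a reads per Mir10b read, and control hearts had 1.52, 2.06 and 2.21. Control replicate 1 had the lowest ratio and the other controls the highest, so the knockout hearts lay between them. The mean log2 ratio was 0.76 ± 0.07 in knockout and 0.93 ± 0.29 in control hearts (SD, n = 3 each), a difference of -0.16 (exact permutation p = 0.4). More reads came from Mir10a than from Mir10b in every heart. Added up and fitted as 1 feature, the genes gave a log2 fold change of -0.30 (SE 0.23, 95% interval -0.80 to 0.20, adjusted p = 0.288 by edgeR). The sum was called lower with total counts (-0.66, adjusted p = 0.0233 by edgeR) and with snoRNA-based factors (-1.16, adjusted p = 0.00114 by edgeR).

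**Figure D4:**
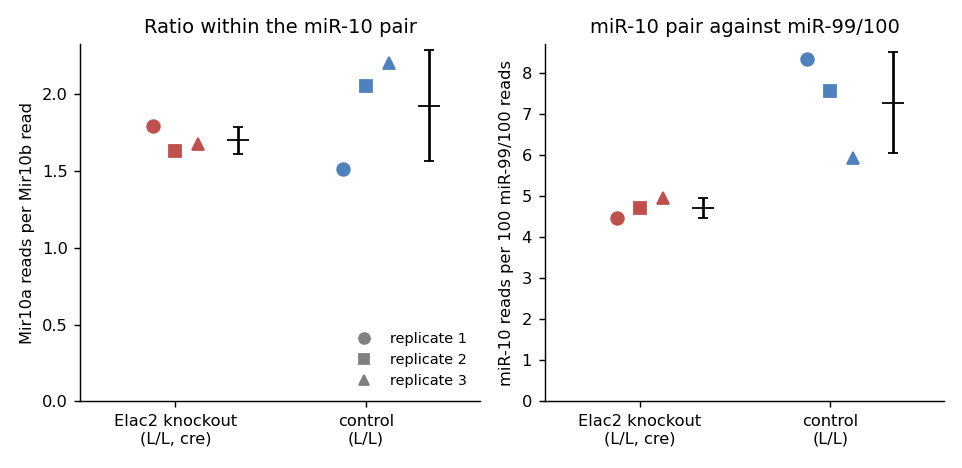
Left, Mir10a reads per Mir10b read in each heart; right, reads of both genes per 100 reads of Mir99a, Mir99b and Mir100; points are mice and the bar is the mean ± SD of 3 mice, on axes from 0. The knockout ratios on the left, 1.63 to 1.80, lie within the control range of 1.52 to 2.21, and those on the right, 4.46 to 4.97, lie below the control values of 5.93 to 8.34.

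The miR-99/100 genes, whose seed differs from that of miR-10 by an inserted or lost base, held far more reads. They took 8.84%, 9.77% and 9.36% of miRNA counts in knockout hearts against 8.22%, 6.08% and 7.13% in control hearts. The groups did not overlap (exact permutation p = 0.1), and the mean share was higher in knockout hearts, while the miR-10 pair took 0.394% to 0.465% of miRNA counts in knockout hearts against 0.423% to 0.686% in control hearts (exact permutation p = 0.6). Set against each other, in a ratio chosen after the data were seen, knockout hearts had 4.46, 4.72 and 4.97 miR-10 reads per 100 miR-99/100 reads and control hearts 8.34, 7.57 and 5.93. All knockout hearts were lower, with means of 4.72 ± 0.254 in knockout and 7.28 ± 1.23 in control hearts (SD, n = 3 each, exact permutation p = 0.1). Taken singly, Mir10a was apart, with 2.87, 2.92 and 3.11 reads per 100 miR-99/100 reads in knockout hearts against 5.03, 5.09 and 4.08 in control hearts (exact permutation p = 0.1). Mir10b overlapped, with 1.59, 1.79 and 1.86 in knockout hearts against 3.32, 2.48 and 1.85 in control hearts (exact permutation p = 0.2). Of the 309 tested miRNA genes outside the miR-99/100 group, 29.4% were likewise apart in reads per miR-99/100 read. Single genes of the group gave different answers: per 100 Mir99a reads the values were 5.25, 5.34 and 5.63 in knockout hearts against 9.78, 9.38 and 7.08 in control hearts, while per 100 Mir100 reads they were 57.0, 75.6 and 79.9 in knockout hearts against 93.2, 60.2 and 59.8 in control hearts, with overlap (exact permutation p = 1). Per 100 Mir99b reads, the sum of both genes was apart, at 61.7, 85.9 and 89.1 in knockout against 145, 112 and 92.5 in control hearts, while Mir10b alone overlapped (exact permutation p = 0.4). Mir99b itself was apart in CPM and higher in knockout hearts, at 1956 to 2051 against 1571 to 1796 in control hearts. The share of miRNA genes apart per Mir99a read or per Mir99b read was not computed.

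Of the 6 relatives in the wider miR-10 family of miR-99, miR-100 and miR-125 genes, 5 were tested and 0 were called in either direction by edgeR with TMM factors, with a median log2 fold change of 0.13 against 0.21 for all tested miRNA genes. Called in either direction were 50.2% of all features and 23.4% of tested miRNA genes. Mir125b-1 was at 0 in every library; its 5′ product is the same as that of Mir125b-2. Mir99a, the most abundant, had 23070, 32940 and 30932 CPM in knockout hearts against 26713, 18841 and 20529 CPM in control hearts (log2 fold change 0.40, SE 0.17, adjusted p = 0.0675), and it was called without control replicate 1 (0.63, adjusted p = 0.00144) or knockout replicate 1 (0.73, adjusted p = 0.0116). Without knockout replicate 1, all features shifted upward by a median of 0.21. Mir99b had 1965, 2051 and 1956 CPM in knockout hearts against 1796, 1573 and 1571 CPM in control hearts (log2 fold change 0.27, SE 0.14, adjusted p = 0.127), with no overlap, and it was called without control replicate 1 (0.41, adjusted p = 0.0378). Mir100 had 2126, 2329 and 2181 CPM in knockout hearts against 2803, 2936 and 2431 CPM in control hearts (log2 fold change -0.30, SE 0.14, adjusted p = 0.0997), also with no overlap. Groups were likewise apart in CPM for 63.0% of all features and 41.7% of tested miRNA genes. Mir125a lay at 848, 744 and 803 CPM in knockout hearts against 1420, 804 and 1116 CPM in control hearts (log2 fold change -0.48, SE 0.20, adjusted p = 0.0691), and without control replicate 2 it was called (-0.70, adjusted p = 0.00488). Mir125b-2 differed by 0.13 on the log2 scale (SE 0.15, adjusted p = 0.488). The calls depended on the scaling. Mir100 and Mir125a were called lower with total counts (adjusted p = 0.00188 and 0.00777 by edgeR) and with miRNA-based factors (adjusted p = 0.0231 and 0.0224 by edgeR). With snoRNA-based factors 4 of the 5 were called lower, all but Mir99a, and with snRNA and rRNA-based factors Mir99b was called higher (adjusted p = 0.0296 by edgeR). Among all features, 37.8% were called lower with total counts, 31.1% with miRNA-based factors and 57.6% with snoRNA-based factors. With snRNA and rRNA-based factors 55.3% were called in either direction. The signs of all 5 depended on the scaling too: Mir99a, Mir99b and Mir125b-2 were negative with snoRNA-based factors, and Mir100 and Mir125a positive with snRNA and rRNA-based ones.

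Other miRNAs of the Hox clusters had few or no counts. A 0 for a gene need not mean that its product was absent. Mir125b-1 was at 0 in every library, while Mir125b-2, with the same 5′ product, had reads in all of them. Mir196b, the gene of the HoxA cluster, had 10, 5 and 12 counts in knockout hearts against 10, 6 and 14 in control hearts, and these overlapped (log2 fold change 0.21, SE 0.46, adjusted p = 0.712 by edgeR). Mir615 had 0, 4 and 17 counts in knockout hearts against 7, 1 and 5 in control hearts, Mir196a-1 had 0 counts in knockout hearts against 0, 2 and 1 in control hearts, and Mir196a-2 had 0 in every library, so these were not tested. Of 7 long non-coding RNAs of the Hox clusters, Hotair among them, 5 were at 0 in every library. Hoxb5os and Hoxb3os had 1 count each, in a control heart, and a change in any of the 7 could not be tested. The libraries held inserts of 15 to 100 nt, so whole transcripts of long non-coding RNAs were not measured.

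By profile over the 6 libraries (root mean square difference of log2 CPM after subtracting each gene's mean), the miRNA genes nearest to Mir10a were Mir499, which lies in an intron of a myosin gene, at 0.13, Mir143, a smooth muscle miRNA, at 0.14 and Mir26a-1 at 0.14. Mir10b ranked 15 among the 311 compared, at 0.19. Nearest to Mir10b was Mir10a, also at 0.19, then Mir881 at 0.19 and Mir338 at 0.22. Mir881 had 1.53, 2.37 and 2.41 CPM in knockout hearts and 2.73, 1.75 and 1.69 CPM in control hearts, where few counts set the profile. With TMM factors none of these 5 other genes was called by edgeR, with log2 fold changes of -0.34 for Mir499 (adjusted p = 0.108), -0.20 for Mir143 (adjusted p = 0.269), -0.30 for Mir26a-1 (adjusted p = 0.110), 0.04 for Mir881 (adjusted p = 0.927) and -0.16 for Mir338 (adjusted p = 0.622). Like Mir10a, Mir499, Mir143 and Mir26a-1 were called lower with total counts (adjusted p = 0.00337, 0.00313 and 0.00245 by edgeR), with miRNA-based factors (adjusted p = 0.0226, 0.0375 and 0.0104 by edgeR) and with snoRNA-based factors. Mir338 and Mir881 were called lower with snoRNA-based factors, as Mir10b was. The shares of all features called lower were 37.8% with total counts, 31.1% with miRNA-based and 57.6% with snoRNA-based factors. These genes were picked for profiles like those of the members in the same libraries, so shared calls largely follow from the choice. These likenesses describe 6 libraries and carry no test.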

How the data were processed

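Total RNA of hearts was made into small RNA libraries of 15 to 100 nt inserts and sequenced in paired ends, per the labels' protocols. The authors deposited raw counts, normalized counts (a signal: the count divided by 1 size factor per library, from the values) and a comparison with log2 fold changes, Wald scores, p-values and adjusted p-values, per the file headers. The submitters' processing notes name DESeq2 1.16.1, featureCounts 1.5.1, Bowtie2 2.2.9, cutadapt 1.14 and build mm10. The sources used here do not give the annotation, strand setting, treatment of multiple alignments or merging of 4 technical replicates per mouse. All tests took the mice as units. In edgeR and DESeq2, p-values weigh the group difference against the spread between mice, estimated with information from other features. Permutation p-values place the observed difference among all splits of the mice into groups. In the authors' deposited comparison, a mean of 0 stands for 270 features that have counts, neither member among them. There were 0 columns of other samples.

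Raw counts were filtered with filterByExpr (minimum count 10, minimum total 15), which left 1144 features, scaled by TMM factors (0.828 to 0.949 in knockout and 1.09 to 1.15 in control libraries) and fitted with edgeR 4.0.16 (glmQLFit, glmQLFTest, R 4.3.3), without covariates. Calls needed a Benjamini-Hochberg adjusted p under 0.05 over all features. Ratios and shares went through exact two-sided permutation tests (SciPy 1.17.1). DESeq2 1.42.0 was an alternative. The edgeR script was tested on simulated data. Libraries were distinct, with a chi-square per degree of freedom of at least 98.2. Named genes are the members, the tested genes of the lists, and the 3 nearest tested miRNA profiles per member. Members and lists were chosen with earlier results of these data known. Positions are from GENCODE M21 and sequences from RefSeq, which held both members.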

Additional observations from a re-analysis of the deposited data

How the results depend on the processing

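Neither member's count is limited by depth; spread between 3 mice per group and the scaling limit both. Of 1144 features 574 were called, against 1141 of 9254 without a filter on low counts and 486 to 908 with a library left out (908 without control replicate 1). Mir10a was called with total counts (-0.70), miRNA-based (-0.52) and snoRNA-based factors (-1.19), and Mir10b with snoRNA-based factors (-1.09). With snRNA and rRNA-based factors signs turned for Mir10a (0.18), Mir10b (0.26), their sum (0.21), Mir125a (0.043), Mir100 (0.24), Mir499 (0.19), Mir143 (0.35), Mir26a-1 (0.25) and Mir338 (0.39). Without a filter they turned for Mir10b (0.073), the sum (0.019), Mir100 (0.051), Mir499 (0.0011), Mir143 (0.15), Mir26a-1 (0.048) and Mir338 (0.19). With snoRNA-based factors they turned for Mir99a (-0.45), Mir99b (-0.58), Mir125b-2 (-0.72), Mir196b (-0.63) and Mir881 (-0.81), with total counts for Mir99b (-0.071), Mir125b-2 (-0.21), Mir196b (-0.12) and Mir881 (-0.32), and with miRNA-based factors for Mir125b-2 (-0.047) and Mir881 (-0.14). The median log2 fold change of all features moved by -0.34 with total counts, -0.18, -0.84 and 0.55 with miRNA-based, snoRNA-based and snRNA and rRNA-based factors, and 0.36 without a filter.

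With each library left out, log2 fold changes lay between -0.52 and -0.0047 for Mir10a, between -0.50 and 0.25 for Mir10b and between -0.51 and 0.037 for their sum. Signs turned without knockout replicate 1 for Mir10b (0.11), the sum (0.036), Mir143 (0.14) and Mir338 (0.17), without control replicate 1 for Mir10b (0.25), the sum (0.037) and Mir338 (0.14), without knockout replicate 2 for Mir338 (0.062), without control replicate 2 for Mir196b (-0.10) and Mir881 (-0.10), and without control replicate 3 for Mir881 (-0.12). Ranges were -0.34 to 0.14 for Mir143, -0.31 to 0.17 for Mir338, -0.12 to 0.43 for Mir881 and -0.10 to 0.71 for Mir196b. The difference in share of miRNA counts lay between -0.0846 and -0.0235 percentage points for Mir10a and between -0.0481 and 0.0222 for Mir10b, and the log2 ratio within the pair between -0.33 and -0.06. Leaving out a knockout library also shifted all features by a median of 0.21 to 0.24, and leaving out a control library by -0.024 to 0.017. The cause of these turns was not tested.

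Replicate numbers showed no visible pairing of the mice: deviations of same-numbered libraries correlated at -0.13, -0.02 and -0.19 over features. Libraries with different numbers correlated at -0.05 to 0.17. Deviations from means of 3 libraries cannot exclude a pairing. With the replicate block 536 features were called, Mir10a had -0.34 (adjusted p = 0.248) and Mir10b -0.16 (adjusted p = 0.636 by edgeR), Mir99a was called (0.40, adjusted p = 0.0378), and the leukocyte marker called lower was not. DESeq2 size factors and the DESeq2 Wald test left all calls of the genes named here as they were. The sum of both genes and the ratio to miR-99/100 were chosen after seeing the data.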
